A study of Mus musculus with 8 samples.

Results

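Imprinted genes are expressed mainly from the maternal or mainly from the paternal copy, and 44 mouse genes of this kind were followed here by symbol through bulk RNA-seq of 2 genotypes at 2 stages. Of the 32334 genes listed in the tables of both stages, 34 were imprinted genes of this set, and 30 of these reached a value of 1 in 2 or more libraries and so were among the 12717 genes tested. Textbook knowledge assigns 16 of the 44 to the maternal allele, 27 to the paternal allele and Gnas to either allele depending on the transcript. The reads were not split by allele, so every value below is the sum of both copies. The genes H19, Airn, Meg3, Rian, Mirg, Kcnq1ot1, Zrsr1, Impact, Mcts2 and Peg13 are not analysed here.

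The 4 groups held 2 libraries each. Mll3/4 dCD cells carry point mutations in Mll3 (Kmt2c) and Mll4 (Kmt2d) that abolish the H3K4 methyltransferase activity of both proteins, in 1 clonal line made from male R1 embryonic stem cells, and WT is the R1 line without them. Both genotypes were sampled as epiblast-like cells (EpiLC) on day 2 of differentiation and as epiblast stem cells (EpiSC) after at least 8 days, with activin A at 20 ng/ml and bFGF at 12 ng/ml in the medium at both stages and serum replacement added for EpiLC. The comparison asks how far the transcript levels of imprinted genes depend on this enzymatic activity at each stage. The genotype cannot be told apart from the clone, and since the labels do not say whether the 2 libraries of a group came from separate cultures, the p-values measure only the spread between these libraries.

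For most such genes, though not all, imprinting rests on DNA methylation laid down in 1 parent's germ line at differentially methylated regions. This methylation is kept on that parent's copy through the reprogramming of the early embryo and erased again in primordial germ cells. Most imprinted genes lie in clusters under a shared control region. In the embryo, paternally expressed members such as Igf2 and Peg3 tend to favour growth and maternally expressed members such as Grb10 and Cdkn1c to restrain it. Pluripotent cells in culture are known for unstable imprints, and a zinc finger protein, ZFP57, guards methylated control regions in them.

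Column sums of the deposited values ranged between 813537 and 1033290, and as these values keep no read counts, sequencing depth is not known. All 10 epiblast markers were above 1 in every group. They summed to 2719 to 3142 in EpiLC dCD and 3189 to 3246 in EpiLC WT, and to 1883 to 2015 in EpiSC dCD and 2218 to 2267 in EpiSC WT. Of the 10, 2 were called higher and 0 lower in EpiLC dCD, and 2 higher and 1 lower in EpiSC dCD. Markers of other cell types moved with genotype: the summed level of 11 fibroblast markers was 20.0 to 23.9 in EpiLC dCD and 72.3 to 75.9 in EpiLC WT, and 51.0 to 52.0 in EpiSC dCD and 29.3 in both EpiSC WT libraries. In EpiSC the 9 trophoblast markers with a value summed to 223 to 243 in dCD and 55.4 to 87.4 in WT, and the 9 extraembryonic endoderm markers with a value to 295 to 323 in dCD and 136 to 192 in WT. The 13 two-cell-like markers summed to 53.3 to 56.3 in EpiLC dCD and to at most 1.58 in EpiLC WT, where all 13 were under 1, and the 9 naive pluripotency markers with a value to 70.4 to 73.5 in EpiLC dCD and 48.6 to 50.2 in EpiLC WT. The 9 primitive streak markers with a value summed to 912 to 926 in EpiSC dCD and 532 to 768 in EpiSC WT. Eomes is on both this list and the trophoblast list, so these lists are not independent. In EpiSC dCD 6 primitive streak markers were called higher and 1 lower. Of the trophoblast markers 4 were called higher and 1 lower there, and of the extraembryonic endoderm markers 3 and 1. In EpiLC dCD 6 naive markers were called higher and 0 lower, and in EpiSC dCD 3 and 2. The 8 neural markers summed to 140 to 141 in EpiLC dCD and 117 to 123 in EpiLC WT, with 3 called higher and 0 lower. In EpiSC the neural sums were 93.9 to 116 in dCD and 114 to 126 in WT. In bulk RNA, fewer cells of a type and less RNA per cell cannot be told apart.

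Levels of the imprinted genes ranged between 0.0364 for Slc22a18 in an EpiSC dCD library and 597 for Gnas in another. These are transcript abundances per length, so genes can be compared. Snrpn, Gnas, Mest, Commd1 and Nap1l4, 5 of the 34, were at 100 or more in every library, and 12 were at 10 or more in every library. Rtl1, Dio3, Slc22a18 and Rasgrf1 were under 1 in every library, so these 4 were not tested. Zim1 passed the filter through the EpiSC dCD libraries alone and Asb4 through the EpiSC WT libraries alone, so a difference between genotypes was built into their selection.

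**Figure D1:**
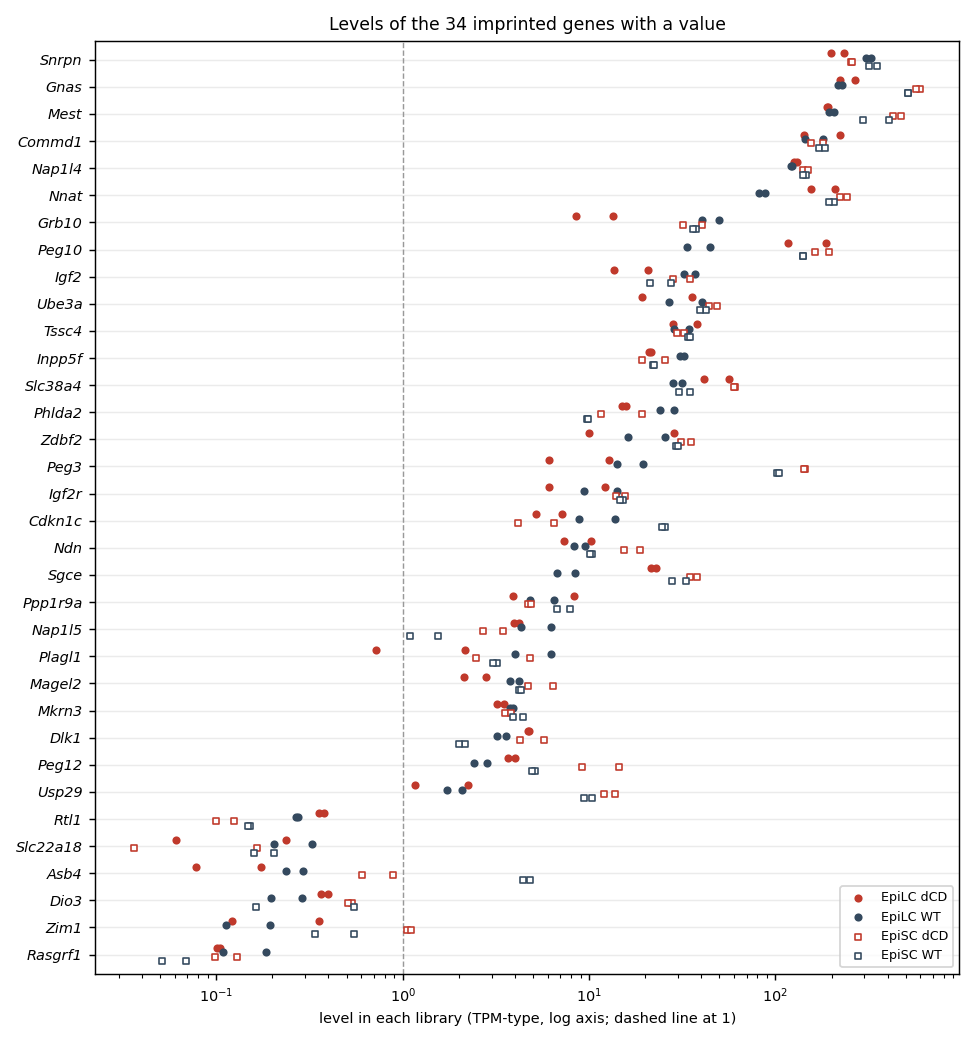
Level of each of the 34 imprinted genes with a value (rows, ordered by EpiLC WT mean) in each of 8 libraries on a log axis, with dCD in red and WT in dark blue, EpiLC as filled circles and EpiSC as open squares. Peg3 lies between 102 and 144 in the 4 EpiSC libraries and between 6.07 and 19.5 in the 4 EpiLC libraries, while the 4 genes at the low end other than Asb4 and Zim1 stay left of the dashed line at 1.

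Levels of many members also differed between the stages. Each stage was deposited in a table that seems to have its own scaling, so these ratios are given without a test. The EpiSC mean was above the EpiLC mean for 27 of the 34 genes in dCD and for 24 in WT. The share over all genes was not worked out, so these counts are not a result about imprinted genes. Peg3, a zinc finger gene, was 15.1-fold higher in EpiSC than in EpiLC in dCD and 6.12-fold higher in WT. Usp29, a ubiquitin protease gene that starts 147 bases from Peg3 on the other strand, was 7.60-fold higher in EpiSC in dCD and 5.21-fold higher in WT. Asb4, a maternally expressed ankyrin repeat and SOCS box gene, was 5.92-fold higher in EpiSC than in EpiLC in dCD and 17.5-fold higher in WT, and for Nap1l5 the ratio was 0.758 in dCD and 0.250 in WT. The ratio of Gnas, which encodes a stimulatory G protein subunit, was close in both genotypes (2.38 in dCD and 2.31 in WT).

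In EpiLC, the paternally expressed genes Peg10, Sgce, Nnat and Slc38a4 rose in dCD cells and Grb10, Igf2 and Snrpn fell. These are 7 of 30 tested members (23.3%), beside 10.1% of all tested genes. Of the members 4 were called higher, beside 7.56% of all genes, and 3 lower, beside 2.57%. A call is an adjusted p under 0.05 (limma, Benjamini-Hochberg over all genes tested), and log2 fold changes are on the log2(value + 1) scale, which understates the change of low genes. Log2 values of the members had a median of -0.14, beside 0.03 over all tested genes. Without EpiLC dCD replicate 2 the count of members called lower was 10, without EpiLC WT replicate 1, EpiLC WT replicate 2, EpiSC WT replicate 1 or EpiSC WT replicate 2 it was 1, and without EpiLC WT replicate 1 only 2 members were called higher. With quantile normalization 4 were called higher and 6 lower.

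Peg10, a gene derived from a retrotransposon and required for the placenta, had 117 and 187 in the EpiLC dCD libraries and 44.8 and 33.4 in the EpiLC WT libraries. Both dCD libraries lay above both WT libraries, and the difference was log2 1.91 ± 0.24 (SE, limma adjusted p = 0.00406), a 3.89-fold ratio of means. Sgce, which encodes a sarcoglycan of the cell membrane and starts 99 bases from Peg10 on the opposite strand, had 22.8 and 21.4 in dCD and 6.70 and 8.42 in WT. The dCD values of Sgce were likewise well clear of the WT values (log2 1.44 ± 0.14, limma adjusted p = 0.00172). The call of Peg10 was lost where EpiLC was fitted alone (adjusted p = 0.0573), and that of Sgce was kept under all 20 alternatives run.

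Nnat, a small membrane protein gene of the developing nervous system that lies within an intron of Blcap, had 208 and 155 in EpiLC dCD and 81.3 and 88.0 in EpiLC WT. The groups did not overlap (log2 1.08 ± 0.15, limma adjusted p = 0.00637), although the call was lost without EpiLC WT replicate 1 (adjusted p = 0.061) and where EpiLC was fitted alone (adjusted p = 0.0795). Blcap, transcribed from the other strand, had 16.3 and 15.5 in dCD and 14.5 and 13.9 in WT and was not called (limma adjusted p = 0.536). Slc38a4, an amino acid transporter gene with a large part in the placenta, had 41.3 and 56.6 in dCD and 31.5 and 28.1 in WT. Its dCD libraries were both above WT but differed among themselves (log2 0.68 ± 0.16, limma adjusted p = 0.0413). Slc38a4 was no longer called without EpiLC WT replicate 1 (adjusted p = 0.143) or replicate 2 (0.205) and without any 1 of the 4 EpiSC libraries (0.0823 to 0.0883), nor with a common total for all libraries (0.262).

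Grb10 encodes an adaptor that restrains signalling from insulin and IGF receptors, and was the only maternally expressed member called in EpiLC. It had 8.53 and 13.4 in EpiLC dCD and 49.9 and 40.5 in EpiLC WT. Both dCD libraries lay far below WT (log2 -1.97 ± 0.22, limma adjusted p = 0.00265), and the mean was 4.12-fold higher in WT. The call was kept under all 20 alternatives run, with adjusted p values up to 0.0434. In EpiSC the level of Grb10 was 31.9 and 40.2 in dCD and 37.5 and 36.2 in WT, with overlapping groups (log2 -0.04 ± 0.22, limma adjusted p = 0.937).

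Igf2, the fetal growth factor, had 20.8 and 13.7 in EpiLC dCD and 32.2 and 36.9 in EpiLC WT. The dCD values were the lower ones in each case (log2 -0.99 ± 0.22, limma adjusted p = 0.0357). Igf2 was no longer called without EpiLC WT replicate 1 (adjusted p = 0.133) or replicate 2 (0.179) and without any 1 EpiSC library (0.0629 to 0.0655). Igf2r, the receptor that carries this ligand to degradation and a maternally expressed gene, had 6.07 and 12.1 in EpiLC dCD and 14.2 and 9.36 in EpiLC WT, with overlapping groups (log2 -0.38 ± 0.30, limma adjusted p = 0.527). In EpiSC Igf2 had 34.8 and 28.3 in dCD and 21.1 and 27.6 in WT, dCD being above WT by log2 0.36 ± 0.22 and not called (limma adjusted p = 0.351).

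Snrpn, which encodes a splicing protein of the Prader-Willi region, had 232 and 200 in EpiLC dCD and 305 and 327 in EpiLC WT. This was a modest difference with no overlap (log2 -0.55 ± 0.11, limma adjusted p = 0.0274), and it was no longer called without EpiLC WT replicate 1 (adjusted p = 0.123) or replicate 2 (0.163) and without any 1 EpiSC library (0.0679 to 0.068). Snrpn shares its sequence with Snurf on the same strand, so their reads can be split between them. Snurf had 179 and 248 in EpiLC dCD and 377 and 347 in EpiLC WT (log2 -0.78 ± 0.17, limma adjusted p = 0.0337). The summed level of Snrpn, Snurf and the overlapping Gm38393 was 415 and 460 in EpiLC dCD and 703 and 687 in EpiLC WT, so the sum was also lower in dCD in both libraries.

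Several uncalled members had EpiLC libraries that disagreed within a genotype. EpiLC dCD replicate 1 and EpiLC WT replicate 2 were each the lower library of their group for 12 of the 15 tested members with a transcript longer than the median of 4462 bases, and for 2 of the other 15. The share over all tested genes was not worked out. Across all tested genes the EpiLC replicate differences correlated with log2 transcript length at -0.408 in dCD and 0.367 in WT, so these counts are not a result about the members. Peg3 was one of the 12, with 6.07 and 12.8 in EpiLC dCD and 19.5 and 14.2 in EpiLC WT (log2 -0.83 ± 0.30, limma adjusted p = 0.14). Plagl1, a zinc finger gene of a growth network, had 0.718 and 2.17 in dCD and 6.27 and 4.00 in WT (log2 -1.37 ± 0.36, limma adjusted p = 0.0612). Both dCD libraries of these genes were below both WT libraries without a call. Without EpiLC dCD replicate 2, Peg3 (adjusted p = 0.00509), Plagl1 (0.0163), Igf2r (0.0402), Ube3a (0.0474), Zdbf2 (0.0328), Inpp5f (0.0464) and Magel2 (0.0469) were called lower (limma).

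**Figure D2:**
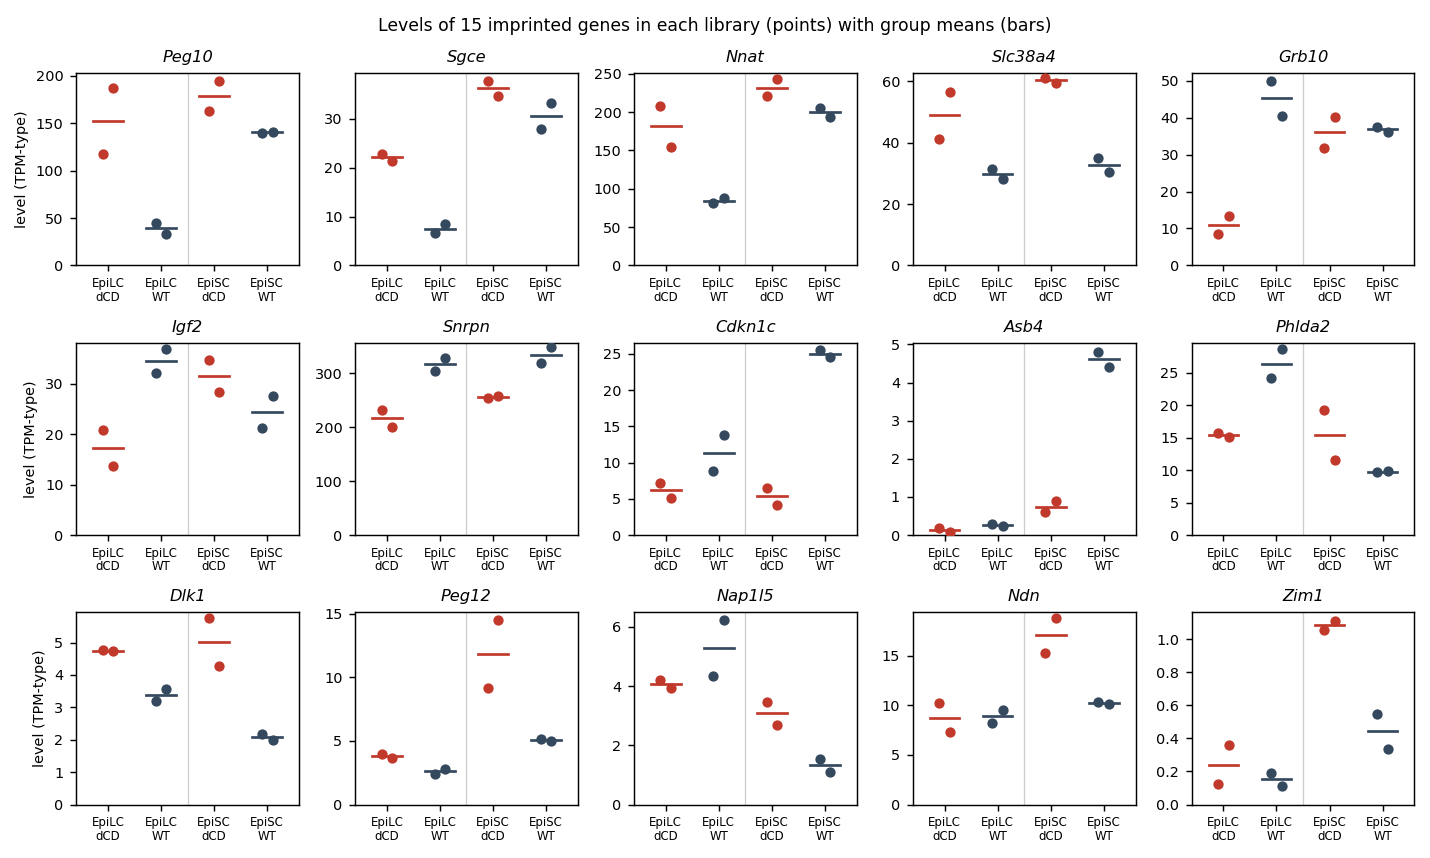
Level of the 15 imprinted genes called in at least 1 contrast, 1 panel each with its own axis that starts at 0, in EpiLC dCD, EpiLC WT, EpiSC dCD and EpiSC WT; points are libraries, bars are group means of 2 libraries, dCD is red and WT dark blue. Peg10 stands at 117 and 187 in EpiLC dCD over 44.8 and 33.4 in EpiLC WT, Grb10 at 8.53 and 13.4 under 49.9 and 40.5, and Cdkn1c at 6.53 and 4.16 in EpiSC dCD under 25.5 and 24.6 in EpiSC WT.

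In EpiSC, 6 members rose in dCD cells (Dlk1, Peg12, Slc38a4, Nap1l5, Ndn and Zim1) and 2 fell (Cdkn1c and Asb4). These are 8 of 30 tested members (26.7%), beside 14.5% of all tested genes, with 7.57% of all genes called higher and 6.91% lower. Leaving out Zim1 and Asb4, whose selection had a difference built in, the 5 called higher are paternally expressed and Cdkn1c, called lower, is maternally expressed. The median log2 value of the members was 0.19, beside -0.01 over all tested genes. The counts of 6 and 2 depended on single libraries: without EpiLC WT replicate 1 or EpiLC WT replicate 2 there were 4 calls higher, without EpiSC dCD replicate 1 or EpiSC dCD replicate 2 there were 2, without EpiSC WT replicate 1 there was 1, and without EpiSC WT replicate 2 there was 0 (limma, with 6 higher at an unadjusted p under 0.05).

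Cdkn1c, which encodes the cell cycle inhibitor p57, had 6.53 and 4.16 in EpiSC dCD and 25.5 and 24.6 in EpiSC WT. The dCD libraries were far below WT (log2 -2.06 ± 0.26, limma adjusted p = 0.00371), with a mean 4.69-fold higher in WT. The call was kept under all 20 alternatives run. In EpiLC, where dCD had 7.19 and 5.17 and WT 8.83 and 13.7, the difference was in the same direction without a call (log2 -0.76 ± 0.26, limma adjusted p = 0.13).

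Asb4 had 0.602 and 0.889 in EpiSC dCD and 4.81 and 4.42 in EpiSC WT. The low dCD values gave a log2 difference of -1.69 ± 0.13 (limma adjusted p = 0.00077), and the mean was 6.19-fold higher in WT. The call was kept under all 19 alternatives in which Asb4 was tested. In EpiLC Asb4 was near 0, at 0.174 and 0.078 in dCD and 0.291 and 0.236 in WT (limma adjusted p = 0.52).

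Dlk1, a membrane ligand related to Notch ligands that holds back adipocyte differentiation, had 5.75 and 4.28 in EpiSC dCD and 2.17 and 2.00 in EpiSC WT. Both dCD libraries lay above WT (log2 0.95 ± 0.15, limma adjusted p = 0.00789), a call that was lost without EpiSC WT replicate 2 (adjusted p = 0.0783). Of its cluster on chromosome 12, Rtl1, a retrotransposon-derived placental gene, and Dio3, a thyroid hormone deiodinase gene, stayed under 1 in every library. Slc38a4 was the only member called at both stages, with 61.0 and 59.6 in EpiSC dCD and 34.9 and 30.6 in EpiSC WT. Its dCD values were close to each other and well above WT (log2 0.87 ± 0.16, limma adjusted p = 0.014). This call was lost without any 1 EpiSC library (adjusted p = 0.0801 without EpiSC dCD replicate 1, 0.0911 without EpiSC dCD replicate 2, 0.0569 without EpiSC WT replicate 1 and 0.123 without EpiSC WT replicate 2) and with a common total (0.0726).

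Peg12, an intronless gene of the FRAT family of GSK3-binding proteins, had 9.18 and 14.5 in EpiSC dCD and 5.15 and 4.96 in EpiSC WT. The groups did not overlap, although the dCD libraries differed among themselves (log2 1.05 ± 0.20, limma adjusted p = 0.0165). The call was lost without EpiSC dCD replicate 2 (adjusted p = 0.0624), EpiSC WT replicate 1 (0.0864) or EpiSC WT replicate 2 (0.121). Ndn, which encodes the MAGE family protein necdin, had 15.3 and 18.8 in EpiSC dCD and 10.3 and 10.1 in EpiSC WT. All dCD values were above WT (log2 0.68 ± 0.18, limma adjusted p = 0.046), and the call was lost without either EpiLC WT library (0.0767 without replicate 1 and 0.0771 without replicate 2) and without any 1 EpiSC library (0.0871 to 0.27).

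Nap1l5, a retrogene of the nucleosome assembly protein family inside Herc3, had 3.47 and 2.69 in EpiSC dCD and 1.55 and 1.09 in EpiSC WT. The dCD libraries were both the higher ones (log2 0.81 ± 0.19, limma adjusted p = 0.0346), and the call was lost without any 1 EpiSC library (0.0836 to 0.232). Its host gene Herc3, on the other strand, had 14.4 and 17.6 in EpiSC dCD and 13.3 and 13.7 in EpiSC WT and was not called (limma adjusted p = 0.68). Zim1, a zinc finger gene and the only maternally expressed member called higher, had 1.05 and 1.11 in EpiSC dCD and 0.550 and 0.337 in EpiSC WT. These low values did not overlap (log2 0.53 ± 0.14, limma adjusted p = 0.0489), and the call was lost without either EpiLC WT library (0.0867 without replicate 1 and 0.0872 without replicate 2) and without any 1 EpiSC library (0.0936 to 0.279).

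The members were also read by expressed allele, as assigned from textbook knowledge. The allele expressed in these cells was not measured. Of 18 tested paternally expressed genes, 15 had a log2 value above 0 in EpiSC and 3 below, with a median of 0.35. For 14 of them both dCD libraries lay above both WT libraries, beside 35% of all tested genes, and for 2 both lay below, beside 36.5%. The 11 tested maternally expressed genes had 4 log2 values above 0 and 7 below in EpiSC, with a median of -0.04, and both dCD libraries lay above both WT libraries for 3 of them and below for 4. These maternal counts include Zim1 on the higher side and Asb4 on the lower side. The selection of both genes had a difference in EpiSC built in, so their place in the counts is not a result. In EpiLC the median was -0.14 for paternally expressed and -0.17 for maternally expressed genes, and 6 of 18 paternally expressed genes had both dCD libraries above WT (26.8% of all tested genes) and 9 both below (17.7%), as against 1 and 4 of the 11 maternally expressed genes. With the untested genes added the medians in EpiSC were 0.30 over 21 paternally and -0.07 over 12 maternally expressed genes. These are descriptions of genes that share clusters, and no test was made of the difference between the alleles.

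**Figure D3:**
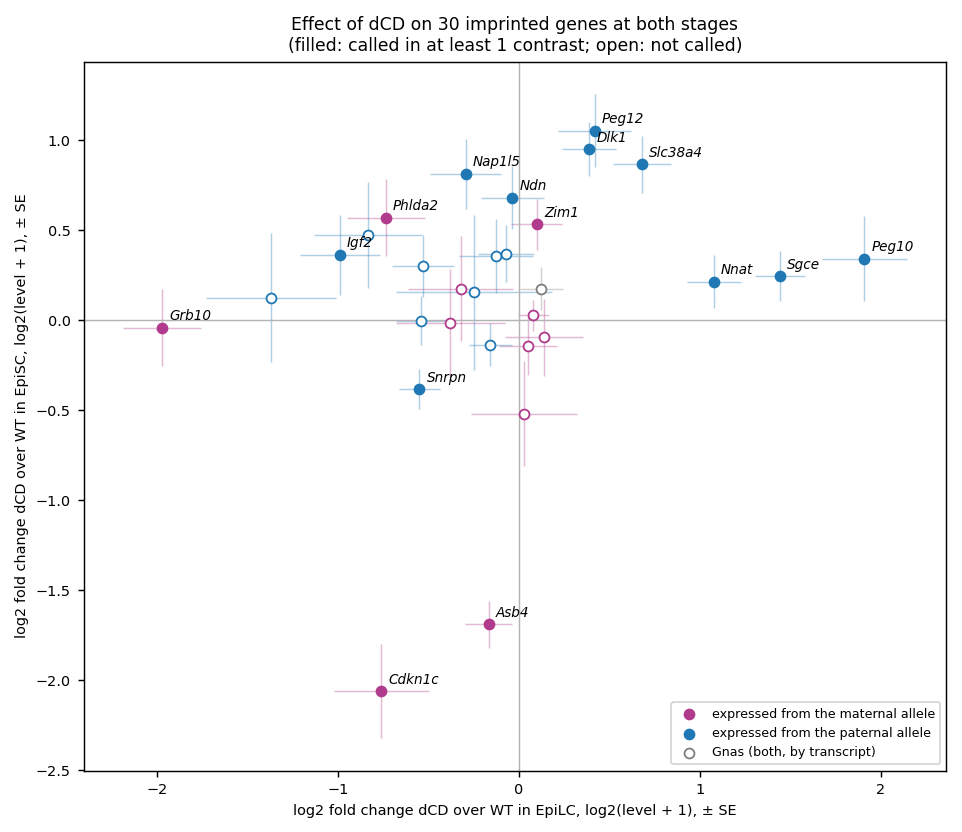
Log2 fold change of dCD over WT on the log2(level + 1) scale, ± SE, in EpiLC (x axis) and EpiSC (y axis) for the 30 tested imprinted genes; colour gives the expressed allele, filled points are genes called in at least 1 contrast. Grb10 at -1.97 and Peg10 at 1.91 mark both ends of the EpiLC axis with EpiSC values near 0, while Cdkn1c at -2.06 and Asb4 at -1.69 stand low on the EpiSC axis, and 15 of 18 paternally expressed genes lie above 0 in EpiSC.

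The difference between the stages was tested as the effect of dCD in EpiSC less that in EpiLC. It was called for 8 of 30 members, beside 10.4% of all tested genes (3.66% higher and 6.72% lower), with 4 higher and 4 lower. Grb10 (log2 difference 1.93 ± 0.31, limma adjusted p = 0.011), Igf2, Phlda2 and Nap1l5 had the higher effect in EpiSC, and Asb4 (-1.52 ± 0.18, limma adjusted p = 0.00437), Peg10, Sgce and Nnat the lower. Phlda2, a maternally expressed gene that limits placental growth, was called in this contrast alone. It had 15.7 and 15.1 in EpiLC dCD and 24.2 and 28.7 in EpiLC WT, then 19.2 and 11.6 in EpiSC dCD and 9.70 and 9.84 in EpiSC WT. The dCD libraries were thus below WT in EpiLC and above WT in EpiSC (log2 difference 1.30 ± 0.30, limma adjusted p = 0.0404). Of the 30 members, 14 had log2 values of opposite sign at the stages. The share over all tested genes was not worked out, so this count is not a result about the members. The call of Phlda2 was lost without EpiLC dCD replicate 1 (adjusted p = 0.0552), EpiLC WT replicate 1 (0.094), EpiLC WT replicate 2 (0.133), EpiSC dCD replicate 1 (0.0553), EpiSC WT replicate 1 (0.125) or EpiSC WT replicate 2 (0.145), and without EpiLC dCD replicate 2 the count of members with a higher effect was 9, and without any 1 library other than the EpiLC dCD ones it was 0 or 1.

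Over both stages with stage as a term, 4 of 30 members were called, beside 4.79% of all tested genes (3.25% higher and 1.54% lower). Slc38a4 (log2 0.77 ± 0.11, limma adjusted p = 0.011) and Dlk1 (0.67 ± 0.15, adjusted p = 0.0494) rose, and Snrpn (-0.47 ± 0.08, adjusted p = 0.0215) and Cdkn1c (-1.41 ± 0.29, adjusted p = 0.0361) fell. In each of these genes the dCD libraries lay on the same side of WT at both stages. Slc38a4 lost this call without EpiSC dCD replicate 2 (limma adjusted p = 0.0507) and with a common total (0.064). Leaving out 1 library ended the call of Snrpn for either EpiLC WT library or any EpiSC library (0.0576 to 0.0891), of Cdkn1c for all but EpiLC dCD replicate 1 and EpiLC WT replicate 1 (0.0621 to 0.116), and of Dlk1 for all but EpiLC dCD replicate 1 (0.061 to 0.154).

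Members that share a cluster were read gene by gene. In the Peg10-Sgce cluster of proximal chromosome 6 (GRCm38), Sgce (chr6:4674350-4747207, minus strand) and Peg10 (chr6:4747306-4760517, plus strand) both rose in EpiLC, while Asb4 (chr6:5383386-5433022) was not called there and fell in EpiSC. Ppp1r9a, which encodes the actin-binding protein neurabin and lies between them, had 3.90 and 8.28 in EpiLC dCD and 6.51 and 4.83 in EpiLC WT, with overlapping groups (limma adjusted p = 0.971). In EpiSC it had 4.71 and 4.88 in dCD and 6.72 and 7.94 in WT. Both dCD libraries were below WT without a call (log2 -0.52 ± 0.29, limma adjusted p = 0.31). With EpiSC fitted alone (limma adjusted p = 0.0382) or with sample weights (0.0357) Ppp1r9a was called lower there. In EpiSC, Sgce had 37.8 and 34.8 in dCD and 28.0 and 33.2 in WT, and Peg10 163 and 195 in dCD and 140 and 141 in WT. Both dCD libraries of these genes remained above WT, but by log2 0.24 ± 0.14 and 0.34 ± 0.24 and without a call (limma adjusted p = 0.318 and 0.416).

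In the Kcnq1 domain of distal chromosome 7, Cdkn1c (chr7:143458339-143461050) fell in EpiSC, whereas Phlda2 (chr7:143501545-143503150) was above WT there without a call (log2 0.57 ± 0.21, limma adjusted p = 0.136). Nap1l4, a nucleosome assembly protein gene next to Phlda2, ranged between 121 and 150 over all 8 libraries, and Tssc4 between 28.0 and 37.8. Neither was called at either stage. Slc22a18, a transporter gene, was under 1 throughout.

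In the Snrpn-Ube3a domain of central chromosome 7, Snrpn was lower in dCD at both stages without a call in EpiSC. It had 254 and 257 in EpiSC dCD and 318 and 349 in EpiSC WT (log2 -0.38 ± 0.11, limma adjusted p = 0.0692). With EpiSC fitted alone (limma adjusted p = 0.0166) or with sample weights (0.00601) it was called lower there. Ndn and Peg12, upstream of Snrpn, rose in EpiSC. Magel2, another MAGE family gene beside Ndn, had 4.68 and 6.43 in EpiSC dCD and 4.21 and 4.34 in EpiSC WT, with dCD above WT and no call (limma adjusted p = 0.314). Mkrn3, a RING finger gene between Magel2 and Peg12, had 3.54 and 3.83 in EpiSC dCD and 4.41 and 3.90 in EpiSC WT, dCD being just below WT (limma adjusted p = 0.539). Ube3a, the ubiquitin ligase gene that is maternally expressed in neurons, was not called at either stage (limma adjusted p = 0.583 in EpiLC and 0.774 in EpiSC). In the Peg3 cluster Peg3 and Usp29 had both EpiSC dCD libraries above WT without a call, an order found in 35% of all tested genes. Zim1 had the same order, but its selection had this difference built in. Peg3 had 144 and 142 in dCD and 102 and 104 in WT (log2 0.47 ± 0.30, limma adjusted p = 0.366). It was called higher there with EpiSC fitted alone (limma adjusted p = 0.00709) and with sample weights (0.0351).

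**Figure D4:**
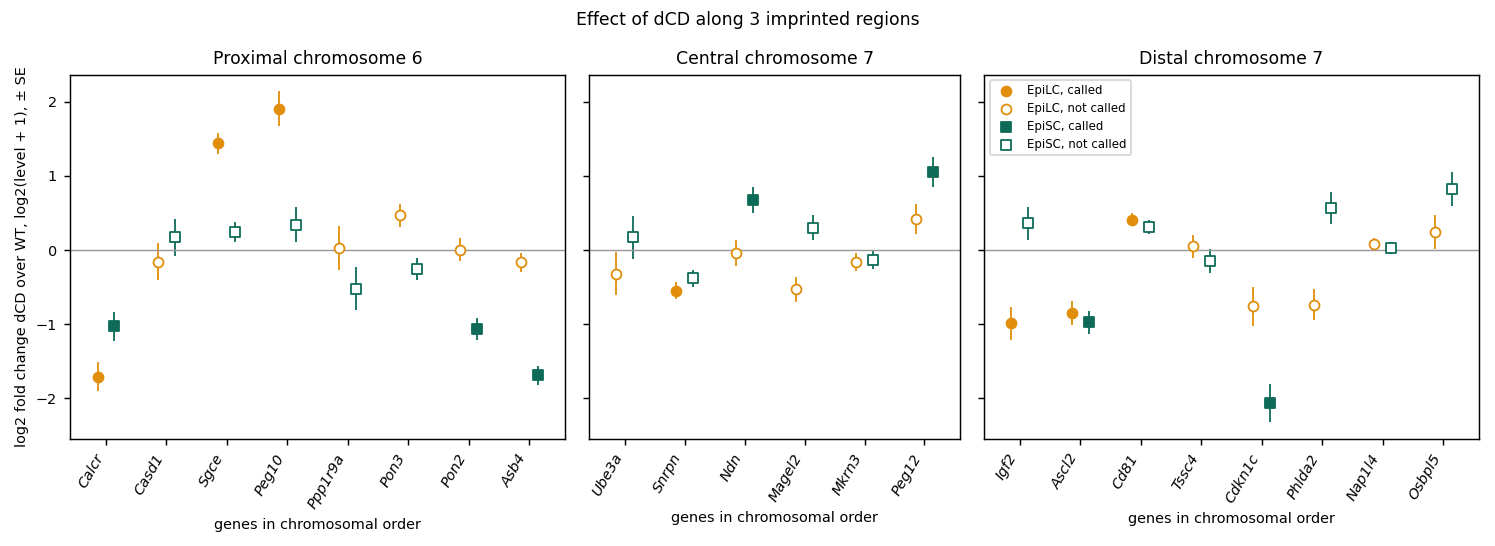
Log2 fold change of dCD over WT, ± SE on the log2(level + 1) scale, for genes in chromosomal order along 3 imprinted regions, with EpiLC as circles, EpiSC as squares and called genes filled; Calcr, Casd1, Pon3, Pon2, Ascl2, Cd81 and Osbpl5 are imprinted neighbours outside the set of 44. Sgce and Peg10 stand at 1.44 and 1.91 in EpiLC between the uncalled Casd1 and Ppp1r9a, and Cdkn1c at -2.06 in EpiSC beside Phlda2 at 0.57.

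The remaining single genes were uncalled at both stages. Mest, a hydrolase-like gene of the mesoderm, had 191 and 190 in EpiLC dCD and 206 and 195 in EpiLC WT, and 426 and 470 in EpiSC dCD and 406 and 295 in EpiSC WT. The dCD libraries were thus just below WT in EpiLC and above it in EpiSC (limma adjusted p = 0.846 and 0.178). Inpp5f, a phosphoinositide phosphatase gene, was nearest to a call in EpiLC, with 21.0 and 21.5 in dCD and 32.2 and 30.8 in WT (log2 -0.54 ± 0.14, limma adjusted p = 0.0513). A processed pseudogene, Gm43580, lies within Inpp5f on the same strand. Gnas, Commd1 and Zdbf2 had adjusted p values between 0.406 and 0.874 at both stages.

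The fibroblast markers summed to less in EpiLC dCD and to more in EpiSC dCD than in WT. Of the 9 tested, 0 were called higher and 3 lower in EpiLC dCD, and 3 higher and 0 lower in EpiSC dCD, and none of the 11 with a value was at 0 in both libraries of a group. At an unadjusted p under 0.05 (limma), 1 was higher and 4 lower in EpiLC dCD, and 4 higher and 2 lower in EpiSC dCD. Most of the EpiLC difference in their sum came from the collagen gene Col3a1, with 1.15 and 2.43 in EpiLC dCD and 44.1 and 40.8 in EpiLC WT, and in EpiSC it had 14.0 and 18.8 in dCD and 7.23 and 9.46 in WT. The part of these markers, of the two-cell-like, naive and neural markers with higher sums in EpiLC dCD, and of the trophoblast, endoderm and primitive streak markers with higher sums in EpiSC dCD, in the levels of Igf2, Grb10, Dlk1 and the other members was not tested.

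A second list of 44 further imprinted genes, mostly of placental or tissue-restricted imprinting, had 36 genes with a value and 25 tested. In EpiLC 5 were called higher and 2 lower (28.0% of those tested, beside 10.1% of all genes), and in EpiSC 2 higher and 4 lower (24.0%, beside 14.5%). Calcr, the calcitonin receptor gene in the Peg10-Sgce region, had 0.886 and 1.55 in EpiLC dCD and 6.98 and 5.45 in EpiLC WT, and 2.39 and 1.84 in EpiSC dCD and 4.98 and 5.68 in EpiSC WT. It was lower in both dCD libraries at each stage (limma adjusted p = 0.00315 in EpiLC and 0.0163 in EpiSC), but the EpiSC call was lost without any 1 EpiSC library (0.0513 to 0.128). Ascl2, a trophoblast transcription factor gene of distal chromosome 7, had 0.267 and 0.255 in EpiLC dCD and 1.17 and 1.37 in EpiLC WT, and 0.858 and 1.0 in EpiSC dCD and 3.36 and 2.30 in EpiSC WT. It passed the filter through the WT libraries alone, so a difference was built into its selection, and it was called lower at both stages (log2 -0.85 ± 0.16 in EpiLC and -0.98 ± 0.16 in EpiSC, limma adjusted p = 0.0189 and 0.00854), with the EpiLC call lost without EpiLC WT replicate 1 (0.0928) or EpiLC WT replicate 2 (0.119) and the EpiSC call without EpiSC dCD replicate 1 (0.0537). Ascl2 is also on the trophoblast marker list, whose sum was higher in EpiSC dCD.

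Other genes named from this list were called at 1 of the stages. Gab1, a docking protein gene of growth factor signalling, had 51.6 and 80.7 in EpiLC dCD and 22.9 and 20.3 in EpiLC WT (log2 1.54 ± 0.20, limma adjusted p = 0.00485). Dhcr7, a gene of the final step of cholesterol synthesis, was higher in both EpiLC dCD libraries (log2 0.60 ± 0.10, limma adjusted p = 0.0109), a call lost without EpiLC WT replicate 1 (0.0821) or EpiLC WT replicate 2 (0.0849). Pon2, a paraoxonase gene between Peg10 and Asb4, fell in EpiSC, with 8.94 and 12.1 in dCD and 22.3 and 23.4 in WT (log2 -1.06 ± 0.15, limma adjusted p = 0.0059; 0.064 without EpiSC WT replicate 2). Ddc, the aromatic amino acid decarboxylase gene next to Grb10, fell in EpiSC (log2 -1.08 ± 0.21, limma adjusted p = 0.0169), and lost that call without EpiSC dCD replicate 1 (0.0888), EpiSC WT replicate 1 (0.0787) or EpiSC WT replicate 2 (0.126). In EpiLC Ddc had 2.61 and 1.89 in dCD and 3.39 and 4.67 in WT, lower in both dCD libraries without a call (log2 -0.63 ± 0.21, limma adjusted p = 0.123). The difference between the stages was not called for Ddc (adjusted p = 0.41), and over both stages it was called lower (adjusted p = 0.0341).

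Genes of the machinery that sets or guards imprints were read from a list of 25, of which 23 were tested. In EpiLC 4 were called higher and 0 lower in dCD (17.4% of those tested, beside 10.1% of all genes), and in EpiSC 0 higher and 1 lower (4.35%, beside 14.5%; limma). At an unadjusted p under 0.05 these counts were 4 and 1 in EpiLC and 1 and 1 in EpiSC. The 1 lower in EpiLC was Dnmt3b, a de novo methyltransferase gene, with 431 and 609 in dCD and 854 and 721 in WT. Both dCD libraries of Dnmt3b were below WT without a call (log2 -0.61 ± 0.18, limma adjusted p = 0.0802). Dnmt3l, the catalytically inactive partner of the de novo DNA methyltransferases, had 33.2 and 25.9 in EpiLC dCD and 7.94 and 8.31 in EpiLC WT, but 0.237 and 0.0847 in EpiSC dCD and 3.10 and 2.72 in EpiSC WT. It was thus high in dCD at 1 stage and low at the other, past the test in both (limma adjusted p = 0.00132 and 0.0011) and under all 20 alternatives. Zfp57 rose in EpiLC under all 20 alternatives (adjusted p between 0.000178 and 0.0207), and in EpiSC had 44.3 and 46.3 in dCD and 43.0 and 46.2 in WT with no call (limma adjusted p = 0.911). Dnmt3a, a de novo methyltransferase gene, rose in EpiLC (log2 0.63 ± 0.11, limma adjusted p = 0.0151), a call lost without EpiLC WT replicate 1 (0.0795) or EpiLC WT replicate 2 (0.108), and the oxygenase gene Tet2 was called in EpiLC (adjusted p = 0.0449) and lost that call without any 1 of the 8 libraries (0.0615 to 0.239).

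Promoter sequence was set beside these results because ZFP57 is known to recognise a methylated hexamer, TGCCGC, at imprinted control regions. RefSeq windows (GRCm38.p6) of 300 bases around the annotated start were found for 29 of the 34 members with a value, 47 windows in all. Peg10, Sgce, Cdkn1c, Nap1l4 and Rtl1 had no entry. The hexamer, read as TGCCGC or its reverse complement GCGGCA, was in 11 of the 47 windows (23.4%), beside 19.1% of windows of tested genes and 11.6% of windows of all genes. The 11 include overlapping Mest windows that hold the same copies, and the 47 include windows of untested members. The median number of CpG in a window was 15 for members, 20 for tested genes and 7 for all genes. Among called members the hexamer was found in windows of Nnat, Grb10, Nap1l5, Snrpn, Igf2 and Zim1 and not in those of Slc38a4, Dlk1, Peg12, Ndn, Asb4 or Phlda2. Genes that rose stand on both sides. Of the genes that fell, only Asb4, whose selection had a difference built in, stands on the side without a copy. A match describes letters in this window and says nothing of binding.

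The following windows are shown because their genes rose or fell or, for Peg3, because its window overlaps that of Usp29. They run 5′ to 3′ on the strand of the gene, with the hexamer or its reverse complement in capitals.
Nnat, chr2:157559828-157560127, plus strand: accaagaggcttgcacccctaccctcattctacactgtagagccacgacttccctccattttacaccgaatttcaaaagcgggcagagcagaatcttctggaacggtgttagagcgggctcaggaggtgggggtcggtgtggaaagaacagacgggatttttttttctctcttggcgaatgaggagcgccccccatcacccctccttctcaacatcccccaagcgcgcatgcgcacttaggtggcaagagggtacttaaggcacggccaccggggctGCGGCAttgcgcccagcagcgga
Nap1l5, chr6:58907077-58907376, minus strand: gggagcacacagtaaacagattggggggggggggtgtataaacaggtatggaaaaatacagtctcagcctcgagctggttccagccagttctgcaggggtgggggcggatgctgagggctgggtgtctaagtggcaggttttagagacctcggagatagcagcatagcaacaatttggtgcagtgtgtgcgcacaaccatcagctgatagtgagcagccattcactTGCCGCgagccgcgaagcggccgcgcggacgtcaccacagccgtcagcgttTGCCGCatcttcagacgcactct
Grb10, chr11:12037371-12037670, minus strand: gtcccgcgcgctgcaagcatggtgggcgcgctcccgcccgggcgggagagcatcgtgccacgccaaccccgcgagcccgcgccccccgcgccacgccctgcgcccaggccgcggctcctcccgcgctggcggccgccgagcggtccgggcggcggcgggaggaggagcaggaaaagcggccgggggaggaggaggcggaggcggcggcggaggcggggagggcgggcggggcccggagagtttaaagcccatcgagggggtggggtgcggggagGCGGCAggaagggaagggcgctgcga
Snrpn, chr7:60005150-60005449, minus strand: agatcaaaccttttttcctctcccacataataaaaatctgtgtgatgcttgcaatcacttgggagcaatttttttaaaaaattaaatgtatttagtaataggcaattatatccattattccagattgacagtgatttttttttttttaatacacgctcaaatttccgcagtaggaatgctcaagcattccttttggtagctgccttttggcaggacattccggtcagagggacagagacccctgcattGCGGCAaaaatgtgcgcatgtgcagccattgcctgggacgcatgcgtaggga
Peg3, chr7:6730370-6730669, minus strand: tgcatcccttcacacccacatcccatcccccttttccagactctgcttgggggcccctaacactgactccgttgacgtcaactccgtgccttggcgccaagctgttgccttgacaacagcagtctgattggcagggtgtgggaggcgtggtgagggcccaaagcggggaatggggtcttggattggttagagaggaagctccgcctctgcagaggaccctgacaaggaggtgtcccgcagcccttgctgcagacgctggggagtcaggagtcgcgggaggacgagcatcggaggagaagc
Asb4, chr6:5383136-5383435, plus strand: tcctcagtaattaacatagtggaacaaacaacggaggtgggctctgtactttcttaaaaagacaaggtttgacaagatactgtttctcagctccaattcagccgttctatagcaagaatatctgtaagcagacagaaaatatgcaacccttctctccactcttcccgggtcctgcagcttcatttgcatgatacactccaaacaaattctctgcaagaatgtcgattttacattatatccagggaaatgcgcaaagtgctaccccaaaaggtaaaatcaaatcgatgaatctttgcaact

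The Nap1l5 window held 2 copies of the hexamer and 17 CpG, and the Nnat window 1 copy and 17 CpG. The Grb10 window was the densest of those shown, with 45 CpG and 1 copy, and the other Grb10 window had 9 CpG and no copy. The Snrpn window shown, which lies just upstream of Snurf, had 7 CpG and 1 copy, while the other 3 windows of Snrpn had 2 to 4 CpG and no copy. For Igf2 the copy was in 1 of 4 windows. The Peg3 window, which overlaps that of Usp29 on the other strand, had 13 CpG and no copy. Asb4, with the largest EpiSC ratio among the called members, had 6 CpG in this window and 8 in its other window, with no copy in either.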

How the data were processed

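Per the labels, polyadenylated RNA had been sequenced with a stranded kit, and the authors quantified reads with kallisto and used sleuth to give 1 value per gene of Ensembl release 96 (mm10). Tool versions were not given in the sources used here. The deposited values are a signal per gene, named TPM in the header. They look multiplied by 1 factor per library, since column sums range between 813537 and 1033290, but this step is not described. TPM alone had been assumed when the tests were planned. They keep no counts, so depth and counting error are unknown. Columns of other samples (6, of embryonic stem cells) were not used.

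Gene identifiers were joined to GENCODE release M21 for 32013 of 32334 genes. Genes that reached 1 in 2 or more libraries were kept. Log2(value + 1) was fitted with limma 3.58.1 in R 4.3.3 with 1 mean per group over all 8 libraries, eBayes with a mean-variance trend and Benjamini-Hochberg adjustment over all genes within each contrast. The effect over both stages had stage and genotype as terms. The code was tested on simulated data.

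The imprinted genes, the other lists and the contrasts were chosen with earlier results of these data known. Every member with a value could be named. Members called in any contrast were given in full and uncalled ones beside a called cluster partner or by range, and from the other lists up to 4 called genes with the smallest p per stage. Inpp5f, Mest, Plagl1, Gnas, Commd1 and Zdbf2, the fibroblast marker Col3a1 and the methyltransferase gene Dnmt3b were named after their values were seen. Alternatives were 2 other pseudocounts, 2 other filters, 2 other scalings, each stage alone, sample weights, the replicate number as a block and leaving out each library, and 3 more chosen after seeing the data.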

Additional observations from a re-analysis of the deposited data

Results flagged for a closer look

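For 8 members the effect of dCD differed between the stages, by a test of the difference itself (EpiSC less EpiLC; limma, adjusted p under 0.05). Grb10 had a log2 difference of 1.93 (adjusted p = 0.011), and the call was lost without EpiLC WT replicate 1 (0.053), EpiSC dCD replicate 2 (0.0508) or EpiSC WT replicate 2 (0.0619). Igf2 had 1.35 (adjusted p = 0.0393) and lost the call without either EpiLC WT library (0.0989 without replicate 1 and 0.129 without replicate 2) or any 1 EpiSC library (0.084 to 0.134). Phlda2 had 1.30 (adjusted p = 0.0404) and lost the call without any 1 library other than EpiLC dCD replicate 2 and EpiSC dCD replicate 2 (0.0552 to 0.145). Nap1l5 had 1.11 (adjusted p = 0.0491) and lost the call without any 1 library other than EpiLC dCD replicate 2 (0.0585 to 0.19).

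Asb4 had a log2 difference of -1.52 (limma, adjusted p = 0.00437) and kept its call without any 1 library, but lost it at a pseudocount of 0.1 (0.0572). Peg10 had -1.57 (adjusted p = 0.0298) and Nnat -0.86 (adjusted p = 0.046), and both lost the call without any 1 library other than the EpiLC dCD ones (0.0581 to 0.119 for Peg10 and 0.112 to 0.162 for Nnat). Sgce had -1.20 (adjusted p = 0.0128) and lost it without EpiLC WT replicate 1 (0.0521), EpiSC dCD replicate 2 (0.0611) or EpiSC WT replicate 2 (0.0677).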

How the results depend on the processing

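No call of a member changed direction in any alternative. In EpiLC, where 4 members were called higher and 3 lower, a fit of that stage alone gave 1 and 1, and there were 6 lower with quantile normalization, 1 lower with sample weights, 7 lower with the length trend removed, and 2 to 4 higher and 1 to 10 lower with 1 library left out. In EpiSC, with 6 higher and 2 lower, there were 4 higher at a pseudocount of 0.1, with quantile normalization or with a common total, 3 without a filter, 2 higher and 1 lower at a mean of at least 5, and 4 lower with the stage alone, weights, the length trend removed or EpiLC dCD replicate 1 and EpiLC WT replicate 2 both left out, and 0 to 6 and 2 to 3 with 1 library left out. For the difference between stages, with 4 and 4, there were 2 lower at a pseudocount of 0.1, 1 and 2 without a filter or at a mean of at least 5, 2 higher with quantile normalization, 1 higher with weights, and 0 to 9 and 1 to 5 with 1 library left out. Over both stages, with 2 and 2, there were 1 higher at a pseudocount of 5, a mean of at least 5, or quantile normalization, 0 higher with a common total (limma, 6 at an unadjusted p under 0.05), 1 and 1 without a filter or with those 2 libraries left out, 5 higher with weights, and 0 to 2 in each direction with 1 library left out. The cause was not tested.

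With the replicate number as a block, the counts were 2 and 1 in EpiLC, 0 and 2 in EpiSC, 0 and 1 for the difference and 0 and 0 over both stages (limma; 7 higher in EpiSC, 7 higher for the difference and 6 and 3 over both stages at an unadjusted p under 0.05). The libraries share only a number: replicate differences of dCD and WT correlated across 12717 genes at -0.583 in EpiLC and -0.00662 in EpiSC, and in EpiLC with log2 transcript length at -0.408 in dCD and 0.367 in WT. With the EpiLC pairing crossed, the counts were 4 and 8 in EpiLC, 7 and 3 in EpiSC, 8 and 5 for the difference and 1 and 1 over both stages. Over all genes, 961 were called higher and 327 lower in EpiLC and 963 and 879 in EpiSC, against 303 and 48, and 335 and 247 with the block, 289 and 60, and 1713 and 1798 with each stage alone, 331 and 52, and 2036 and 2124 with weights, and 758 and 511, and 994 and 940 with quantile normalization. With a common total they were 570 and 183, and 705 and 532, and with the length trend removed 1142 and 799, and 1422 and 1304. With 2 libraries a group, differences near the spread could not be detected.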
